A study of Danio rerio with 6 samples.

Results

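The pancreatic digestive enzymes are a group of genes that acinar cells of the exocrine pancreas express at very high levels, and their RNA was read here in livers dissected from zebrafish larvae. They were chosen as 10 symbols, and a gene was a member if its Entrez ID in the count table mapped to one of them. Of the 10, 7 were among the 6502 genes with an ID: the trypsinogen genes *prss1*, *prss59.1* and *prss59.2*, the elastase genes *ela2l* and *cela1.2*, the alpha-amylase gene *amy2a* and the carboxypeptidase gene *cpa5*. The other 3, *ela2* (an elastase), *ctrb1* (chymotrypsinogen B, named ctrb.1 in RefSeq) and *cpb1* (carboxypeptidase B), were not in the rows used and were not analysed here.

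Acinar cells store their proteases as inactive zymogens in secretory granules and release them through the pancreatic duct into the gut, where trypsin activates the other zymogens. The same cells secrete amylase and lipases in active form. In fish as in mammals these transcripts mark the exocrine pancreas and not the hepatocyte, and in the larva the pancreas lies close to the liver and the gut.

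Each sample was RNA from a pool of 15 larval livers taken at 7 days post fertilization (dpf). The groups were WT larvae and cr*keap1a/b* larvae, with 3 pools in each. The latter came from embryos injected at the single-cell stage with Cas9 and guide RNAs against *keap1a* and *keap1b*, the zebrafish paralogs of Keap1, which represses the transcription factor Nrf2. Such injected animals are mosaic, so a pool mixes cells that carry different edits. The study's methods name clutch siblings as controls. The labels do not say whether the WT embryos were injected or whether pools came from separate clutches. The spread between these pools, on which p-values rest, may thus in part be technical. The limma-voom test also draws the variance of each gene toward that of other genes. Its SE and p-values therefore do not measure the spread of that gene's own pools alone. The sample descriptions also carry a code of a number and a letter, and replicate 3 of each group is the only pool with the letter b. What the code stands for is not given.

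The libraries held between 10846582 and 16666610 counts. Both letter b libraries stood apart, since 53.2% (WT) and 47.6% (cr*keap1a/b*) of their genes had no count, while in each of the other 4 this share was 2.83% to 13.1%. In CPM (counts scaled to a common total), 3 counts came to 0.200 to 0.316, far below every enzyme. The targeted genes did not separate the groups, with *keap1a* at 375, 0 and 379 counts in WT replicates 1, 2 and 3 against 291, 307 and 0 in cr*keap1a/b*, and with *keap1b* at 314, 261 and 10 counts against 489, 309 and 0. Mosaic edits need not lower a transcript's count, so these values do not check the labels.

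All 7 enzymes were lower in cr*keap1a/b* livers. Levels are given as CPM after TMM scaling, a correction of library totals for composition. Added over the 7 enzymes, the level was 40261, 25093 and 25689 CPM in WT replicates 1, 2 and 3 against 10487, 11346 and 8144 CPM in cr*keap1a/b* replicates 1, 2 and 3. The lowest WT pool was thus 2.21-fold above the highest cr*keap1a/b* pool. Means were 30348 ± 8590 CPM (SD, n = 3) and 9992 ± 1657 CPM (SD, n = 3). Between means of log2 values, the summed level was lower in cr*keap1a/b* by 1.58 in log2 (−1.58), or 2.99-fold. As a share of all counts with an ID, with no scaling, the enzymes made up 3.25%, 2.16% and 2.93% in WT against 0.976%, 1.14% and 1.096% in cr*keap1a/b*, with 95% Wilson half-widths of at most 0.0101 percentage points. Such intervals cover at most the error of counting reads. Counting by molecule is not mentioned in the labels or the study's methods. In bulk RNA, fewer acinar cells in a pool and less enzyme RNA per cell cannot be told apart.

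The trypsinogens held most of the enzyme RNA. Trypsinogens are the precursors of trypsin, the protease that starts the activation of the other zymogens. For *prss59.2* the level was 11490.0, 7418 and 9483 CPM in WT replicates 1, 2 and 3 against 3397, 3752 and 2695 CPM in cr*keap1a/b*. It was the most abundant enzyme in every pool, ranking 12th to 21st among all genes in the WT libraries and 45th to 60th in the cr*keap1a/b* libraries. Its log2 fold change was −1.57 ± 0.12 SE, a 2.97-fold lower level (limma-voom adjusted p = 1.73e-16). For *prss1* the level was 10816, 6395 and 6142 CPM in WT against 2614, 2937 and 2301 CPM in cr*keap1a/b*, so the cr*keap1a/b* pools lay close together and the WT pools were spread by replicate 1. The log2 fold change came to −1.45 ± 0.15 SE (limma-voom adjusted p = 5.83e-11). For *prss59.1* the level was 3702, 2633 and 1569 CPM in WT against 1081, 1063 and 665 CPM in cr*keap1a/b*. Here the gap between the groups was the smallest of the 7, with the lowest WT pool 1.45-fold above the highest cr*keap1a/b* pool, and the log2 fold change was −1.30 ± 0.26 SE (limma-voom adjusted p = 0.000896). RefSeq places *prss59.1* and *prss59.2* side by side as neighbouring genes, and *prss1* lies 43 coding genes away on the same chromosome. Reads of such related genes can be assigned to one another, so the split between the 3 is less certain than their fall.

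Both elastase genes were lower as well. Elastases are serine proteases that cut elastin and other proteins. For *cela1.2* the level was 6688, 4296 and 4416 CPM in WT against 1614, 1720.0 and 1502 CPM in cr*keap1a/b*. The cr*keap1a/b* pools varied by a coefficient of variation of 6.76%, the lowest of any enzyme in either group, and the log2 fold change was −1.602 ± 0.18 SE (limma-voom adjusted p = 2.35e-10). For *ela2l* the level was 802, 485 and 406 CPM in WT against 147, 78.5 and 31.0 CPM in cr*keap1a/b*. This was the least abundant of the 7 in every pool, and its cr*keap1a/b* pools were the most scattered, with a coefficient of variation of 68.1%. The fall was also the largest of the 7, at −2.98 ± 0.68 SE in log2 or 7.87-fold (limma-voom adjusted p = 0.00607), and −2.30 without cr*keap1a/b* replicate 3. The counts behind it were 7659, 3957 and 6968 in WT against 1636, 987 and 466 in cr*keap1a/b*, so counting error is small beside the spread between pools. RefSeq places *ela2l* next to *ela2*, and *cela1.2* between *cela1.1* and *cela1.3*, so reads from those neighbours may be counted with them or lost from them.

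The enzymes that are not serine proteases followed. The starch-digesting enzyme *amy2a* was at 2570.0, 1698 and 1289 CPM in WT against 584, 619 and 199 CPM in cr*keap1a/b*. Replicate 3 was well below the other cr*keap1a/b* pools. The log2 fold change was −2.06 ± 0.35 SE, a 4.17-fold lower level (limma-voom adjusted p = 3.49e-05). The carboxypeptidase *cpa5*, of a family that trims amino acids from the carboxyl end of peptides, was at 4194, 2169 and 2384 CPM in WT against 1051, 1177 and 751 CPM in cr*keap1a/b*. WT replicate 1 was again well above the other WT pools, and the log2 fold change was −1.50 ± 0.24 SE (limma-voom adjusted p = 8.45e-06). RefSeq places *cpa5* next to *cpa1*, another carboxypeptidase.

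**Figure D1:**
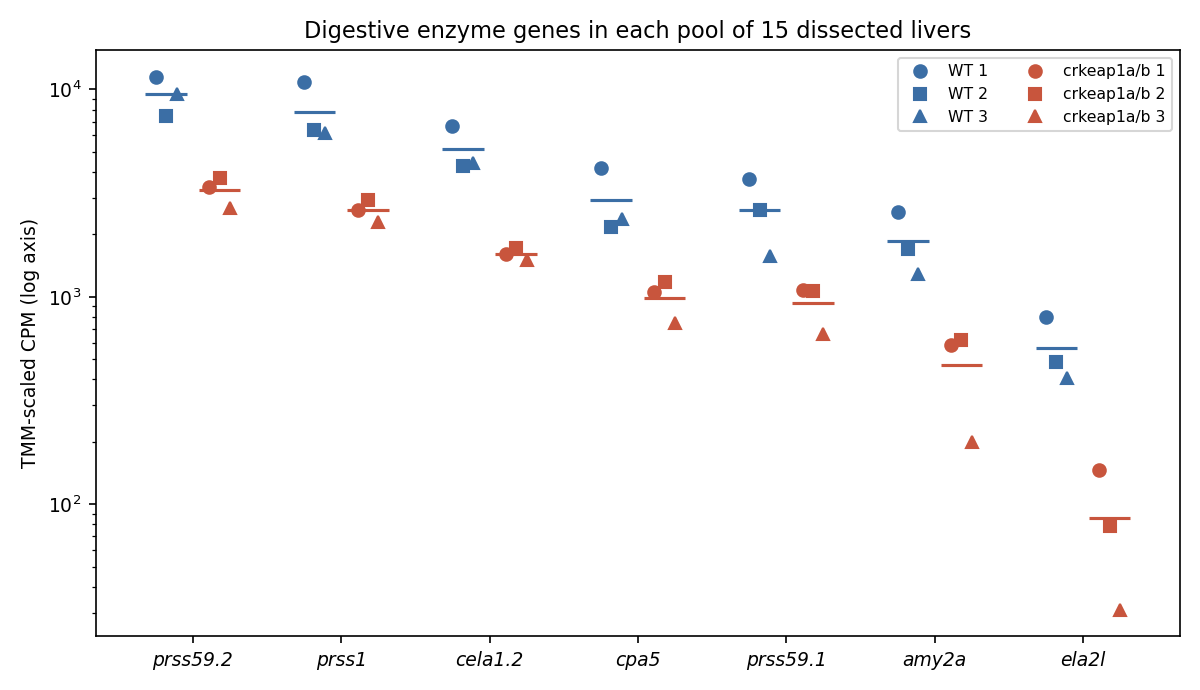
Level of each of the 7 enzymes in every pool, as TMM-scaled CPM on a log axis, with 1 point per pool and a bar at the group mean. For each enzyme all 3 cr*keap1a/b* pools lie below all 3 WT pools, by 1.45-fold for *prss59.1* and 2.77-fold for *ela2l*.

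On the TMM scale the same pools were at the ends of the range for every enzyme. WT replicate 1 had the highest level of all 6 pools for each of the 7, and cr*keap1a/b* replicate 3 the lowest. That order depends on the TMM factors. By library total alone, WT replicate 1 was the highest for 6 of the 7, and the lowest pool was cr*keap1a/b* replicate 1 for 4 and replicate 3 for 3, while all 7 still separated the groups. Among WT pools the coefficient of variation ran from 21.5% for *prss59.2* to 40.5% for *prss59.1*. Within letter a, WT replicates 1 and 2 stand against cr*keap1a/b* replicates 1 and 2. There the differences between means of log2 level ran from −1.37 for *prss59.2* to −2.54 for *ela2l*. Within letter b, with 1 pool per group and so no replicate check, they ran from −1.24 for *prss59.1* to −3.71 for *ela2l*. Every enzyme was lower in cr*keap1a/b* within both letters.

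Across the 6386 genes that passed the filter on low counts, 38 were called lower in cr*keap1a/b* at a limma-voom adjusted p under 0.05, which is 0.595%, and all 7 enzymes passed that filter and were among them. They made up 18.4% of the lower calls. Abundant genes were called lower more often. Of the 328 genes with a mean level at or above that of *ela2l*, 36 were called lower, or 11.0%. That cutoff, 325 CPM over the 6 pools, is the level of the least abundant enzyme, and the other enzymes lie well above it. The 36 also include the 7 enzymes themselves and 3 other exocrine pancreas genes, so this share is not independent of them. Groups that did not overlap, with all cr*keap1a/b* pools lower, were found for 319 genes, or 5.0%, and for all 7 enzymes. The enzymes' median log2 fold change was −1.57, against a median of 0.36 over all genes tested and of −0.20 over the 328 genes at or above the level of *ela2l*, of which 66 or 20.1% were lower without overlap. Scaling by library size alone moved the median over all genes tested to 0.57 and that of the enzymes to −1.42. The fall of each enzyme kept its direction. Under that scaling and under RLE factors *ela2l* lost its call, at 0.188 and 0.826 (limma-voom adjusted p).

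The calls rested on single libraries more than the directions did. edgeR's quasi-likelihood test, which called 6 genes lower in all or 0.0940%, called 3 enzymes: *prss1* (edgeR adjusted p = 0.0197), *prss59.2* (edgeR adjusted p = 0.0152) and *cela1.2* (edgeR adjusted p = 0.0133), with the other 4 between 0.0568 and 0.0952. In limma-voom fits without WT replicate 1, without WT replicate 2 or without cr*keap1a/b* replicate 2, 0 of 7 enzymes were called, and 0, 3 and 0 had an unadjusted p under 0.05. Those fits called 1, 4 and 1 genes lower in the whole table (0.0155%, 0.0620% and 0.0155%), so nearly every call was lost and not those of the enzymes alone. All 7 were called without WT replicate 3, where 71 genes or 1.09% were called lower, and without cr*keap1a/b* replicate 3, where 37 or 0.571% were. Without cr*keap1a/b* replicate 1, 4 enzymes were among the 22 genes called lower (0.341%). With the description letter as a covariate, limma-voom called 0 of 7, all 7 at an unadjusted p under 0.05, and 10 genes lower in all (0.157%). The log2 fold change of each enzyme stayed negative in all of these fits. Within letter a, where 139 genes or 2.15% were called lower, limma-voom called all 7.

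**Figure D2:**
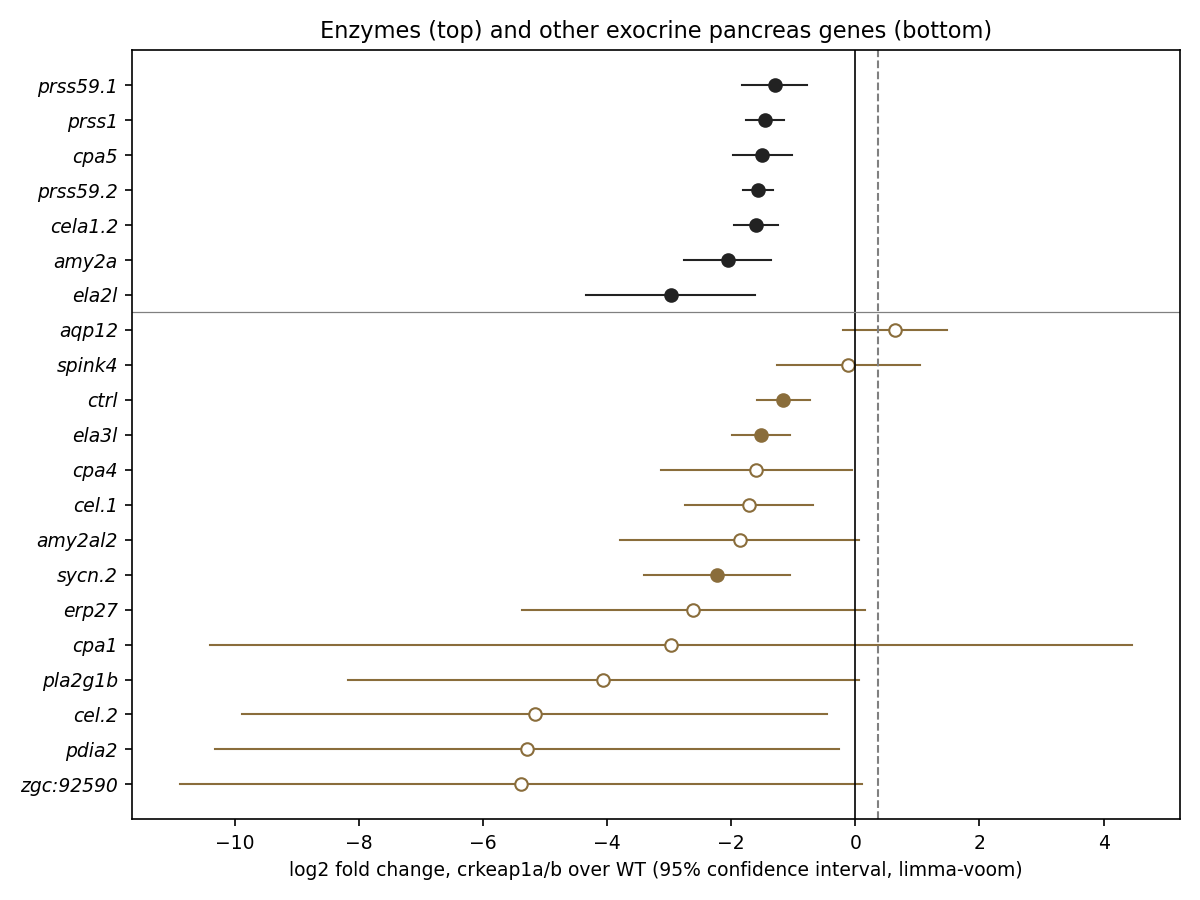
Log2 fold change (cr*keap1a/b* over WT) from limma-voom of the 7 enzymes and of 14 other exocrine pancreas genes, with bars for the 95% confidence interval, filled points for genes called and a dashed line at the median of all tested genes (0.36). All 7 enzymes and 13 of the 14 other genes lie below 0, and *aqp12* is the exception at 0.64.

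Ratios between enzymes within a pool do not depend on how the library was scaled. Counts come from the 3′ end of transcripts and were not divided by length, so a ratio of counts stands for a ratio of tags. Of the summed enzyme counts, *prss59.2* took 31.7% ± 4.57 (SD, n = 3) in WT against 32.9% ± 0.396 (SD, n = 3) in cr*keap1a/b*, *prss1* 25.4% ± 1.48 and 26.4% ± 1.71, and *cela1.2* 17.0% ± 0.32 and 16.3% ± 1.84. The share of *cpa5* was 9.45% ± 0.90 in WT against 9.87% ± 0.59 in cr*keap1a/b*, and that of *prss59.1* was 8.60% ± 2.25 and 9.28% ± 1.08. None of these 5 shares separated the groups, with two-sided exact permutation p between 0.4 and 0.7.

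The share of *ela2l* did separate them. It was 1.99%, 1.93% and 1.58% of the enzyme counts in WT replicates 1, 2 and 3 against 1.401%, 0.692% and 0.381% in cr*keap1a/b*. The 95% Wilson interval of the lowest WT pool, 1.54% to 1.62%, lay above that of the highest cr*keap1a/b* pool, 1.33% to 1.47%. These intervals cover at most the error of counting reads and not the spread between pools. By a two-sided exact permutation test p was 0.1, which is as low as 3 against 3 pools can go, and 0.7 after Benjamini-Hochberg adjustment over the 7 shares. Of the 7 shares, 1 separated the groups. With no difference between groups, each would do so, in either direction, with a probability of 0.1. The share of *amy2a* was 6.38%, 6.77% and 5.02% in WT against 5.57%, 5.46% and 2.44% in cr*keap1a/b*. Its groups overlapped (two-sided exact permutation p = 0.3), and the low mean in cr*keap1a/b* came mostly from replicate 3.

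**Figure D3:**
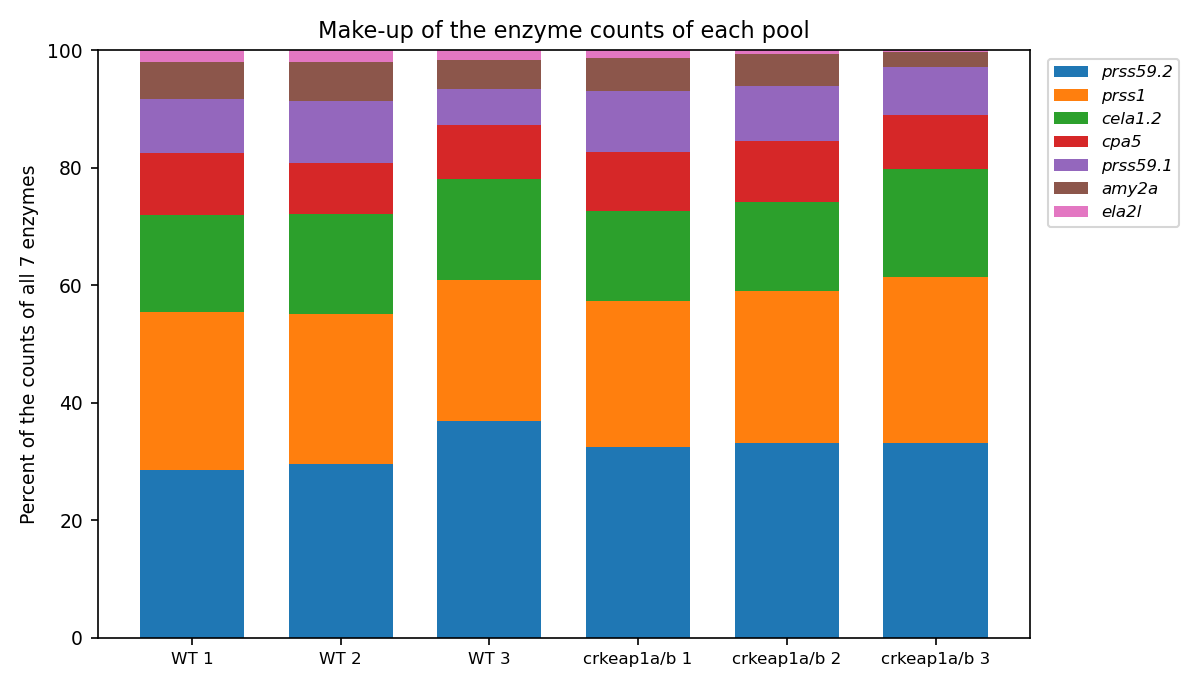
Share of each enzyme in the summed counts of the 7 enzymes, in percent, for each of the 6 pools as a stacked bar that adds to 100. In all 6 pools *prss59.2*, *prss1* and *cela1.2* are the largest bands in that order. The thin *ela2l* band falls from 1.58% or more in WT to 1.401% or less in cr*keap1a/b*, and the *amy2a* band is 2.44% in cr*keap1a/b* replicate 3.

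Of the 21 ratios between pairs of enzymes, 6 did not overlap between groups. Of these, 5 included *ela2l* and so are not independent of each other. With no difference between groups, any 1 ratio would separate them, in either direction, with a probability of 0.1. The narrowest gap was that of *ela2l* to *cela1.2*, at 0.0920 in WT replicate 3 against 0.0910 in cr*keap1a/b* replicate 1. The ratio of *prss1* to *ela2l* was 13.5, 13.2 and 15.1 in WT against 17.8, 37.4 and 74.2 in cr*keap1a/b*. In log2 this ratio was higher by 1.399 in cr*keap1a/b* on average (two-sided exact permutation p = 0.1, adjusted to 0.35 over the 21 pairs), and by 0.89 without cr*keap1a/b* replicate 3. Over the 6 ratios that include *ela2l*, the size of the log2 difference was 0.83 to 1.49, and 0.74 to 1.12 without that pool, with 0 of 6 turning sign. Against *amy2a*, *ela2l* stood at 0.312, 0.285 and 0.315 in WT against 0.252, 0.127 and 0.156 in cr*keap1a/b*, a log2 difference of −0.83. So *ela2l* was lower relative to *amy2a* as well, the enzyme with the next largest fold change. The sixth pair was *prss59.1* to *amy2a*, at 1.44, 1.55 and 1.22 in WT against 1.85, 1.72 and 3.34 in cr*keap1a/b*. No ratio reached an adjusted p under 0.35 by the exact permutation test, and 3 against 3 pools cannot go below 0.1 before adjustment.

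The 10 pairs that involve neither *ela2l* nor *amy2a* differed between groups by 0.0036 to 0.20 in log2, and 0 of the 10 separated the groups. The ratio of *prss1* to *cpa5* was 2.58, 2.95 and 2.58 in WT against 2.49, 2.50 and 3.06 in cr*keap1a/b*, a log2 difference of −0.01 with a 90% interval, by inverting the exact permutation test, of −0.24 to 0.25. The ratio of *prss1* to *cela1.2* was 1.62, 1.49 and 1.39 in WT against 1.62, 1.71 and 1.53 in cr*keap1a/b*, a log2 difference of 0.11 with an interval of −0.08 to 0.30. These are among the narrower intervals, and the widest of the 10, that of *prss59.1* to *prss59.2*, ran from −0.52 to 0.94. The 5 genes of these pairs were 2.47- to 3.04-fold lower in cr*keap1a/b*, while their ratios to each other moved by 0.20 or less in log2, within intervals that allow wider differences. The ratio of *prss1* to *prss59.2* was below 1 in all 6 pools, from 0.648 to 0.941, so the order of the top pair did not change. By contrast *prss59.1* and *cpa5* changed places from pool to pool, with ratios of 0.658 to 1.21. The 5 ratios of *amy2a* to enzymes other than *ela2l* differed by 0.45 to 0.66 in log2 size, but by 0.028 to 0.35 without cr*keap1a/b* replicate 3. Without that pool the log2 difference of *cela1.2* to *amy2a* went from 0.45 to −0.03, turning its sign, while that of *prss59.1* to *amy2a* went from 0.66 to 0.35.

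**Figure D4:**
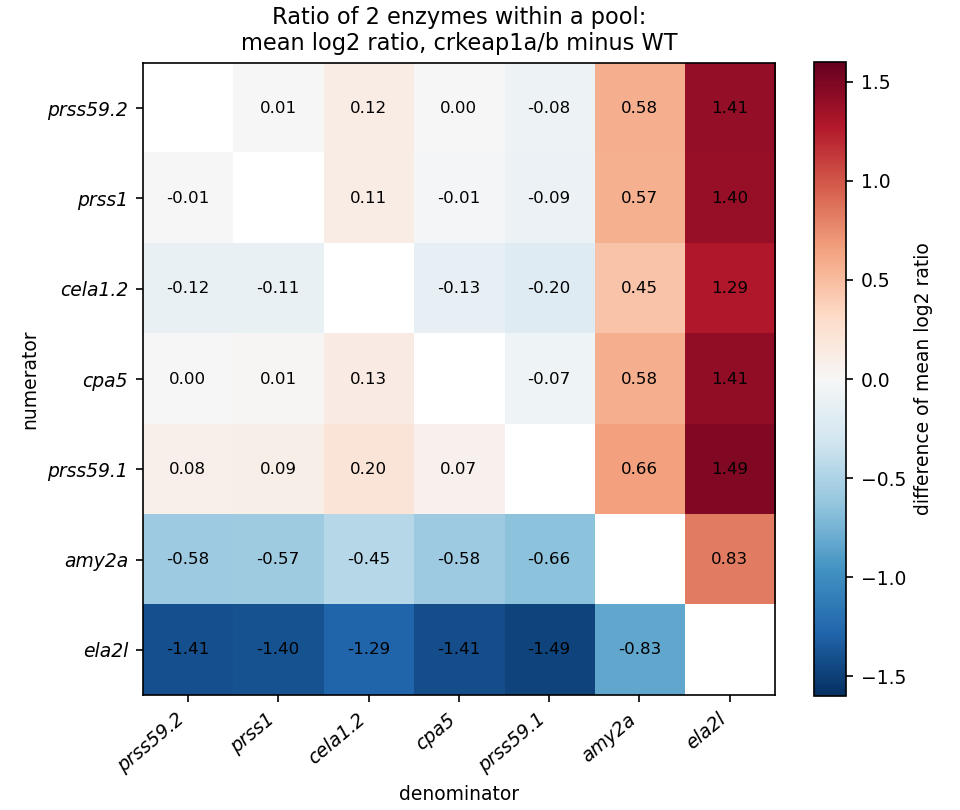
Difference between groups (cr*keap1a/b* minus WT) of the mean log2 ratio of the row enzyme to the column enzyme, for the 21 pairs in both orders, as a heat map with the value in each cell. Cells that involve *ela2l* are the darkest, and those among *prss1*, *prss59.1*, *prss59.2*, *cela1.2* and *cpa5* lie within 0.20 of 0.

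Other genes of the exocrine pancreas were read from a list of 38, of which 14 were in the table and all 14 were tested. Of these, 13 had a negative log2 fold change, 3 were called lower and 0 higher. The share called lower is 21.4%, against 0.595% of all genes and 11.0% of the genes at or above the level of *ela2l*. The median log2 fold change of the list was −2.05, but −1.30 without cr*keap1a/b* replicate 3, in which several of its genes had 0 or 1 count, and −1.29 within letter a. In summed level the list was at −1.21 on the log2 scale, against −1.58 for the enzymes. The proelastase-like gene *ela3l* was at 3325, 2068 and 2439 CPM in WT against 1066, 987 and 715 CPM in cr*keap1a/b*, a log2 fold change of −1.52 ± 0.24 SE (limma-voom adjusted p = 5.21e-06). The chymotrypsin-like gene *ctrl* was at 2441, 2037 and 2804 CPM in WT against 1047, 1189 and 1141 CPM in cr*keap1a/b*, a log2 fold change of −1.16 ± 0.22 SE (limma-voom adjusted p = 0.000223). For *sycn.2*, which encodes a syncollin, a protein of the zymogen granule, levels were 1042, 577 and 300.1 CPM against 124, 140.5 and 74.1 CPM. The log2 fold change came to −2.23 ± 0.59 SE (limma-voom adjusted p = 0.0306). With these 3, exocrine pancreas genes made up 10 of the 38 lower calls, or 26.3%.

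The other 11 genes of that list did not pass the test. The bile salt-activated lipase *cel.1* was at 641, 478 and 402 CPM in WT against 156, 248 and 87.5 CPM in cr*keap1a/b*, with groups that did not overlap and a limma-voom adjusted p of 0.0850. In cr*keap1a/b* replicate 3, *cel.2*, *pdia2*, *zgc:92590* and *cpa1* were at 0 counts and *pla2g1b*, a secreted phospholipase A2, was at 1 count, as were many genes in that library. Their fitted fold changes rest on those low counts and are drawn with their wide intervals but not read further. The aquaporin gene *aqp12* stood the other way, at 315, 325 and 325 CPM in WT against 668, 574 and 362 CPM in cr*keap1a/b*. Its groups did not overlap either, and the log2 fold change was 0.64 (limma-voom adjusted p = 0.749). For *spink4*, of the Kazal type of protease inhibitors, the log2 fold change was −0.11 (limma-voom adjusted p = 0.9996). edgeR called 0 of the 14, with 6 at an unadjusted p under 0.05. Within letter a, limma-voom called 7 of the 14 lower, where 2.15% of genes were called lower, and 1 higher, *aqp12*, where 149 genes or 2.31% were called higher. The lower calls fell to 0 without WT replicate 1, WT replicate 2 or cr*keap1a/b* replicate 2 and to 1 without cr*keap1a/b* replicate 1, with 0, 0, 0 and 3 of the 14 at an unadjusted p under 0.05.

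Summed levels of endocrine pancreas, bile duct, intestine and skeletal muscle markers lay lower in cr*keap1a/b* too, with no single gene of them called. Fitted log2 fold changes of the intestinal and muscle lists went both ways, while the 3 endocrine and 3 bile duct genes had only negative ones. Even so, *sox9b* (−2.11 ± 2.85 SE) and *krt18b* (−0.95 ± 3.80 SE) of the bile duct list had higher mean levels in cr*keap1a/b*. These were 35.4 against 18.3 CPM in WT, and 5.76 against 3.88 CPM in WT. Both had 0 counts in cr*keap1a/b* replicate 3, so their signs are not read further. SE was also wide for *sst1.2* (3.95) and *sst2* (3.86), at 0 counts in replicate 3 of both groups. Of 19 listed genes of the endocrine pancreas, 3 somatostatin genes were in the table, and the summed level of *sst1.1*, *sst1.2* and *sst2* was 61.5 to 277 CPM in WT against 0 to 36.7 CPM in cr*keap1a/b*. The islet hormone genes *ins* and *gcga* were not in the rows used. Bile duct genes, of which 3 of 6 were in the table and *anxa4* was nearly the whole sum, lay at 1134 to 1572 CPM in WT against 692 to 1019 CPM in cr*keap1a/b*. Intestinal genes, 13 of 20 in the table and led by *apoa4b.1* and *chia.2*, lay at 1175 to 2131 CPM in WT against 842 to 1175 CPM in cr*keap1a/b*, so that the groups touched. Of the 13, 8 had a negative and 5 a positive log2 fold change, and without *apoa4b.1* the sums overlapped, at 489 to 763 CPM in WT and 343 to 905 CPM in cr*keap1a/b*, where replicate 3 was the highest of the 6 pools. Skeletal muscle genes, 9 of 14 and led by *actc1b* and *pvalb1*, lay at 448 to 2717 CPM in WT. The highest value was in WT replicate 1, and the cr*keap1a/b* pools lay at 261 to 437 CPM. Of the log2 fold changes, 6 were negative and 3 positive. The 3 positive genes, *mylz3*, *tnni2a.4* and *pvalb4*, had 3, 0 and 0 counts in WT replicate 3. Their mean levels were lower in cr*keap1a/b*, at 22.1, 14.8 and 19.6 CPM against 99.7, 28.3 and 88.3 CPM in WT. Their signs are thus not read further. In these 4 lists 0 genes were called in either direction by limma-voom, against 0.595% of all genes in each direction. Of the 38 genes called lower, 36 were at or above the level of *ela2l*, 325 CPM over the 6 pools. The leading muscle and endocrine genes, *actc1b* and *sst1.1*, were at 235 and 53.1 CPM. Calls at such levels were rare, so 0 calls does not set these lists apart from the enzymes. The part of these tissues in the fall of the enzymes was not tested.

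**Figure D5:**
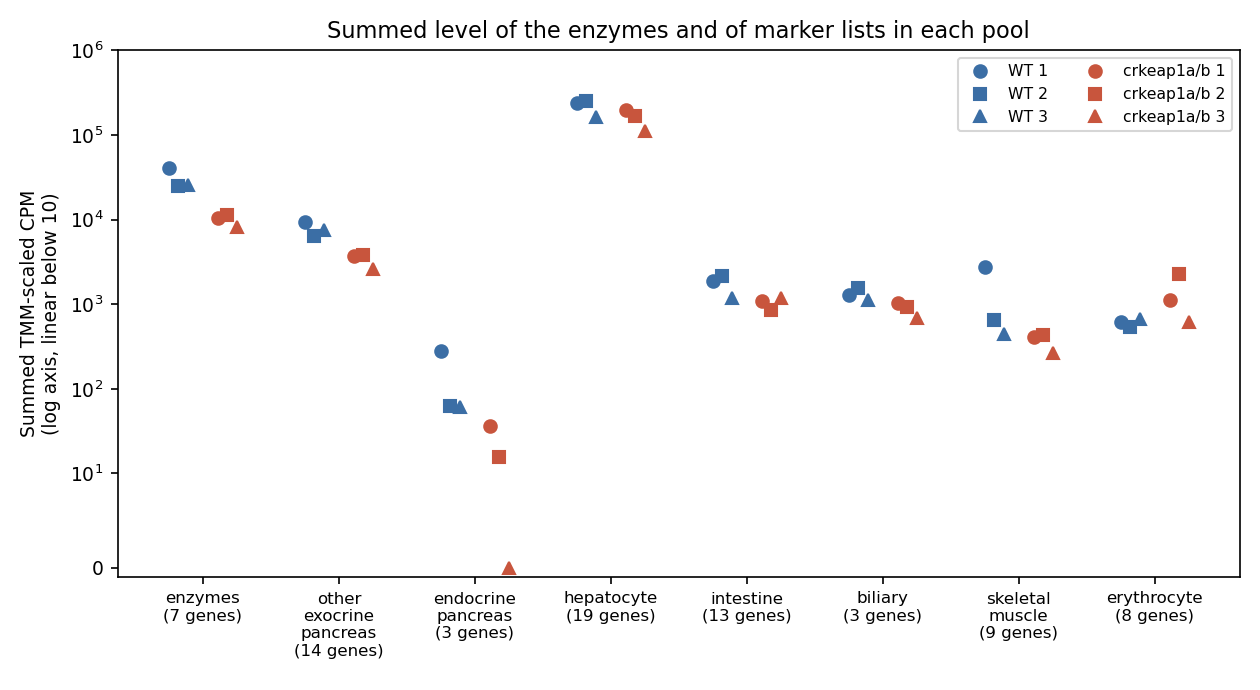
Summed TMM-scaled CPM of each marker list in every pool, on a log axis that is linear below 10, with 1 point per pool. The enzymes and the other exocrine pancreas genes separate the groups, and so do the endocrine, bile duct and muscle sums by smaller margins or at lower levels, while hepatocyte and erythrocyte sums overlap.

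Liver cells themselves were read from 19 of 20 listed hepatocyte genes. Their sum, led by the apolipoprotein *apoa1b* and the liver fatty acid binding protein *fabp10a*, was 160888 to 248884 CPM in WT against 112143 to 195780 CPM in cr*keap1a/b*, and the groups overlapped. Of the 19, 2 were called lower, *apoa1b* (log2 fold change −0.60) and *fabp10a* (−0.49), and 1 was called higher, *apoa1a* (1.13), at limma-voom adjusted p under 0.05, against 0.595% of all genes in each direction and 11.0% called lower among genes at or above the level of *ela2l*. Relative to this hepatocyte sum, the 7 enzymes were at 16.8%, 10.1% and 16.0% in WT against 5.36%, 6.80% and 7.26% in cr*keap1a/b*, or 14.3% ± 3.66 (SD, n = 3) and 6.47% ± 0.99 (SD, n = 3). Between means of log2 values this is a difference of −1.12, smaller than the −1.58 of the summed level itself. The groups still did not overlap. Erythrocyte genes (8 of 11), led by the globin genes *hbae3* and *hbbe1.3*, had a higher mean in cr*keap1a/b* and overlapped, at 535 to 666 CPM in WT against 620 to 2294 CPM in cr*keap1a/b*, with 0 called by limma-voom.

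Among the 1928 genes above 0 counts in all 6 pools, those whose level most resembled the summed enzymes were ranked by Pearson r of log2 CPM over the 6 pools. *ela3l* came first (r = 0.992) and *sycn.2* second (r = 0.972), and *cel.1* was eighth (r = 0.953). The other 7 of the top 10 were on none of the lists: *nop53* (0.970), *slc38a4* (0.966), *ktn1* (0.963), *agxtb* (0.958), *c6ast4* (0.955), *slc25a29l* (0.951) and *aimp2* (0.951). Of these 7, limma-voom called 3 lower, against 0.595% of all genes tested and 11.0% of those at or above the level of *ela2l*. The 7 were picked for likeness to a sum that separates the groups. Lower levels in cr*keap1a/b* were thus built into the choice. The amino acid transporter gene *slc38a4* was at 1761 ± 533 CPM in WT against 406 ± 195 CPM in cr*keap1a/b*, *agxtb*, of an aminotransferase family, at 3150.0 ± 757 against 1066 ± 33.3 CPM, and *c6ast4* at 1103 ± 416 against 405 ± 142 CPM (SD, n = 3 per group). *ctrl* ranked 16th (r = 0.925), and *aqp12* had an r of −0.66. These r values are a description over 6 pools in 2 groups that differ in the enzymes, all genes being read from the same libraries.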

How the data were processed

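Per the labels and the study's methods, livers were dissected into TRIzol and libraries were made with the QuantSeq 3′ mRNA kit, with single-end reads. The authors deposited raw counts per Entrez gene, made with cutadapt 1.16, STAR 2.7.5b and featureCounts 1.6.3 on danRer11. Molecular identifiers are not mentioned. In each of its 6637 rows at least 3 pools reached 0.512 CPM of the library total, so the rows hold no gene that was lower than this in most pools. Absence of a gene from the rows is thus not absence of its RNA, and shares of all genes are shares of these rows. Of 6637 rows, 135 without an ID (9.82% to 13.6% of counts) were left out. Of the 6502 IDs, 6426 matched a symbol in the RefSeq table of GRCz12tu, used for names and neighbours only.

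Genes were filtered with filterByExpr, scaled by TMM and tested with limma-voom on the group alone (limma 3.58.1, edgeR 4.0.16, R 4.3.3), with Benjamini-Hochberg adjustment over the 6386 genes tested. Scripts were tested on simulated data. Alternatives covered scaling, filter, tool (DESeq2 1.42.0 among them), replicate block, letter and each pool left out. Same-numbered pools did not deviate together (r of 0.0099 to 0.074 by title number, 0.045 to 0.074 by description code), so no pairing was used. Ratios and shares were compared by two-sided exact permutation over the 20 labellings.

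The enzymes and lists were chosen with earlier results of these data known. Named genes were all enzymes, the called or 5 smallest-p genes of the exocrine list, the 2 most abundant genes of each marker list over the 6 pools, *keap1a* and *keap1b*, and the 10 genes most like the enzymes. Other names were chosen after their values were seen.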

Additional observations from a re-analysis of the deposited data

How the results depend on the processing

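Over 17 alternative fits, the 7 enzymes gave 119 log2 fold changes: 0 reversed direction, 68 kept their call and 51 lost it. All 7 enzymes were called in the main fit, with DESeq2, with limma on a trend in place of voom, and with no filter. Those alternatives called 46, 22 and 29 genes lower in all. RLE factors and library size only gave 6 and 6 enzymes, with 27 and 27 genes lower in all. edgeR called 3 enzymes. With the replicate block by title number, the replicate block by description code, or the description letter as a covariate, 0 were called. There 7, 7 and 7 had an unadjusted p under 0.05. Those 3 fits called 2, 3 and 10 genes lower in all. The block and the covariate leave fewer residual degrees of freedom. Leaving out 1 pool gave 0 to 7. Adjusted p over all alternatives reached 1 for each enzyme, in a fit that left out 1 pool. Of the other exocrine pancreas genes, 3 were called lower in the main fit, 0 with edgeR, 0 and 0 with the blocks, 1 with the letter as covariate (*ctrl*), 7 within letter a and 0 to 4 when 1 pool was left out. The other scalings, filter and tools gave 2 to 4. The summed enzyme level, −1.58 in log2, was −1.12 relative to the hepatocyte sum and −1.70 to −1.36 with 1 pool left out. Shares that separated the groups numbered 1, but 3 as a centred log ratio, 4 within letter a and 1 to 3 with 1 pool left out. With fewer pools, groups separate more readily when nothing differs. The counts within letter a and with 1 pool left out are thus not comparable with the 1 of all pools. The cause of these changes was not tested. Genes called lower in all numbered 38 in the main fit, 6 with edgeR, 46 with DESeq2 and 139 within letter a. With 3 pools per group, no ratio could pass an adjusted threshold.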

Other observations

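Rows without a gene ID were kept in an added fit, chosen after seeing the data. The row whose level most resembled the summed enzymes (Pearson r = 0.963 over the 6 pools) had a mean level of 2256 ± 203 CPM in WT pools against 495 ± 190.5 CPM in the cr*keap1a/b* pools (SD, n = 3 each), or −2.29 ± 0.30 SE as log2 fold change (limma-voom adjusted p = 7.98e-05). It has no name in the table and is not identified here.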
